A study of Mus musculus with 6 samples.

Results

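The genes described here are 10 genes by which inflammatory monocytes and macrophages, and their states of activation, are commonly read: Ly6c2, Plac8, Chil3, Arg1, Nos2, Retnla, Ms4a7, Lyz2, Adgre1 and Cd68. They were chosen by name, as a list, from the 36047 genes to which the deposited transcripts could be joined. Earlier results of these data were known at that choice, so the shares of all genes given beside the members are descriptions only. All 10 members were among the 20094 genes with enough counts to be tested. Bulk RNA sequencing was performed on the infarct area of hearts from C57BL6 mice aged 12 weeks, 48 h after ischemia/reperfusion (I/R), a temporary closure of the left coronary artery. Of the mice, 3 received LGK-974 by daily oral gavage from the time of surgery and 3 received its DMSO vehicle. LGK-974 inhibits Porcupine, the enzyme that attaches a lipid to Wnt proteins and thereby allows their secretion. All mice, controls included, were female, of that strain and injured, so neither an uninjured heart nor an untreated injured heart is among the libraries. The comparison asks whether blocking Wnt secretion was accompanied by a different level of monocyte and macrophage genes in the infarct.

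Monocytes that carry high levels of the surface protein Ly6C leave the blood and enter an infarct within hours, and they become macrophages in the tissue over the next days. Macrophages are often described along an axis from classical activation, driven by interferon or bacterial products and marked by the nitric oxide synthase Nos2, to alternative activation, driven by interleukin-4 and marked in mice by Arg1, Chil3 and Retnla. Nos2 and Arg1 use the same substrate, arginine, for nitric oxide and for ornithine and urea, respectively. In an infarct these genes do not sort cells cleanly, since monocytes in transit carry genes of both ends.

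Among the 10 members, the general macrophage genes Lyz2, Cd68, Adgre1 and Ms4a7 and the monocyte gene Chil3 were higher in each LGK-974 mouse than in each DMSO mouse. These 5 of 10 members compare with 10.7% of all tested genes. The same 5 members had an unadjusted p under 0.05 in edgeR's quasi-likelihood test and were higher with LGK-974, against 6.26% of all tested genes, whereas no member was lower at that p, against 7.18%. The groups overlapped for Arg1, Nos2, Plac8, Ly6c2 and Retnla. After Benjamini-Hochberg adjustment over all genes, edgeR called 0 members, as it called 0% of the tested genes. DESeq2, the program the study used, called 4 members at an adjusted p under 0.05, namely Lyz2, Cd68, Chil3 and Adgre1, all higher with LGK-974, against 0.985% of the genes to which it gave an adjusted p. Without DMSO replicate 1 it called 4 members as well, against 2.04%. The median log2 fold change was 0.85 over the members and −0.13 over all tested genes, and 9 of the 10 members were above 0, against 40.5% of all tested genes. In bulk tissue, more cells of a type and more RNA of a gene per cell cannot be told apart. By flow cytometry of whole hearts from other mice at the same time after injury, the study reported fewer leukocytes with LGK-974. Inflammatory monocytes were significantly fewer there, and for macrophages it described a trend without statistical significance. How those cell counts relate to the RNA levels of the infarct area given here was not tested.

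**Figure D1:**
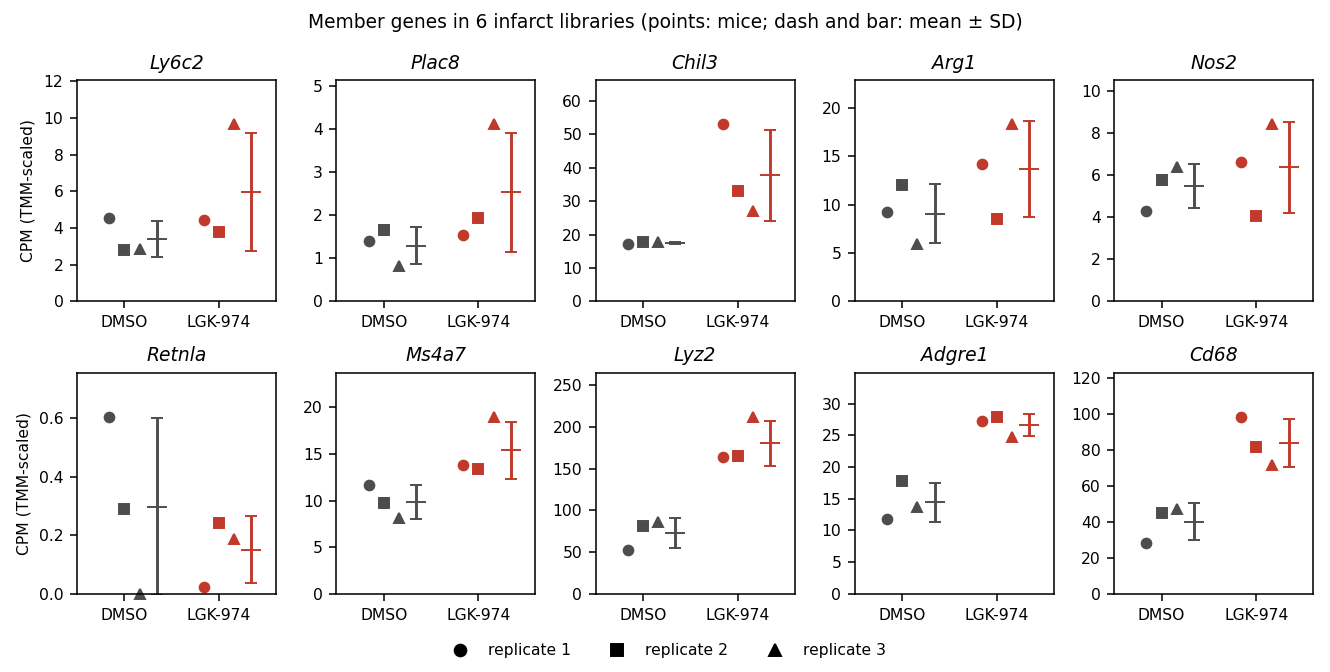
Each panel plots 1 member gene in CPM (counts per 1000000 counts of the library, scaled between libraries by the TMM method) for 3 DMSO and 3 LGK-974 mice. Symbols are single mice by replicate number, and the dash with its bar is the mean ± SD. Lyz2, Adgre1, Cd68, Chil3 and Ms4a7 show no overlap between the groups, whereas the other 5 genes do.

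Total estimated counts ran from 41579787 to 80398211 per library. DMSO replicate 1 stood apart in 1501 olfactory, vomeronasal and taste receptor genes, which were taken here as largely silent in heart. Of these, 99.3% held counts there, whereas 59.8 to 88.3% did elsewhere. These silent genes had a median of 38.1 counts per kb in that library, and of 3.68 to 14.7 counts per kb in the remaining 5. This level serves below as a floor for members with few counts. Heart muscle was present in each library, with a summed level of 8 cardiomyocyte markers between 18226 and 31961 CPM. The fibroblast markers moved with the macrophage genes: all 8 of 8 were higher with LGK-974, against 40.5% of all tested genes. Their summed levels were 3418 to 5949 CPM with LGK-974 and 1671 to 2473 CPM with DMSO. Of these 8, 5 were without overlap, against 10.7% of all tested genes. DESeq2 called 4 of them higher, against 0.985% of the genes to which it gave an adjusted p. Of the 8 cardiomyocyte markers 7 were lower and 1 was higher, against the same 40.5% higher, with overlapping sums. The part of such a difference in tissue composition in the results below was not tested.

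Lyz2 encodes lysozyme M, a bacterial cell wall enzyme made by monocytes, macrophages and neutrophils, and lies on chromosome 10 from 117277331 to 117282321 (GRCm38, minus strand). It was the most abundant member per length in both groups, where TPM, the abundance of a transcript corrected for its length and for the library total, averaged 183 ± 104 in the LGK-974 mice and 56.8 ± 23.1 in the DMSO mice (SD, n = 3 each). Its level was 164, 165 and 212 CPM in LGK-974 replicates 1 to 3 and 52.2, 81.9 and 85.7 CPM in DMSO replicates 1 to 3. The lowest LGK-974 mouse lay well above the highest DMSO mouse, and the lowest value of all was that of DMSO replicate 1. The log2 fold change was 1.30 with a standard error (SE) of 0.237, with an adjusted p of 0.368 by edgeR and 2.62e-04 by DESeq2. Without DMSO replicate 1 it was 1.12.

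Lyz2 has a close copy, Lyz1, known from Paneth cells of the gut, and Kallisto divides a read that matches both genes between them. Of the 1286 different 31-base words in the Lyz2 transcript, the length Kallisto matches by default, 422 (32.8%) also occur in Lyz1. The coding sequences are 95.0% identical, with 22 differing bases in 444. The stretch of 90 coding bases with the most differences, 13, is shown because it is where reads can tell the copies apart (chr10:117282111-117282200 for Lyz2 and chr10:117292707-117292796 for Lyz1, both GRCm38, minus strand, each within a coding exon, with capitals at the differing bases).
Lyz2: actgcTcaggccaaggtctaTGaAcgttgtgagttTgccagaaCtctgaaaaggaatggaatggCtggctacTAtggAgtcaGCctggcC
Lyz1: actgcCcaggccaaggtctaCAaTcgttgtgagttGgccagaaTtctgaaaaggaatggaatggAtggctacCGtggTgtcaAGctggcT
Lyz1 held only 5.04 to 38.4 estimated counts per library, against 2076 to 13955 for Lyz2, so that the sum of the copies gave a log2 fold change of 1.29.

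Cd68 encodes macrosialin, a glycoprotein of the lysosomal membrane of macrophages and other phagocytes (chromosome 11, 69664213 to 69666153, minus strand). It was measured at 98.1, 81.6 and 71.7 CPM in the LGK-974 mice and at 28.1, 44.8 and 47.3 CPM in the DMSO mice. DMSO replicate 1 was again the lowest library, and the groups were well apart. Cd68 averaged 83.8 ± 13.3 CPM with LGK-974 and 40.1 ± 10.4 CPM with DMSO (SD, n = 3 each), which edgeR fitted as 1.06 on the log2 scale (SE 0.236). Its adjusted p was 0.368 by edgeR and 0.00943 by DESeq2. Without DMSO replicate 1 the log2 fold change of Cd68 was 0.88. None of its 31-base words occurs in another gene, and no other annotated gene shares its exons.

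Adgre1 encodes F4/80, the adhesion receptor by which mouse macrophages are recognised and gated (chromosome 17, 57358691 to 57483527, plus strand). The LGK-974 mice had 27.3, 27.9 and 24.7 CPM and the DMSO mice 11.8, 17.7 and 13.7 CPM. The LGK-974 mice lay close together, with an SD of 1.69 CPM around a mean of 26.6, while the DMSO mice had a mean of 14.4 ± 3.01 CPM (SD, n = 3 in each group). For Adgre1 edgeR fitted a log2 difference of 0.88 (SE 0.182), with an adjusted p of 0.368 by edgeR and 0.0256 by DESeq2. Without DMSO replicate 1, the lowest library here as well, the log2 fold change of Adgre1 was 0.78. Its 31-base words are found in no other gene.

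Ms4a7 encodes a membrane protein of the MS4A family found on macrophages (chromosome 19, 11321039 to 11336146, minus strand). Summed over its 5 transcripts, the level was 13.8, 13.4 and 19.0 CPM under LGK-974 and 11.7, 9.76 and 8.11 CPM under DMSO, or 0.64 higher on the log2 scale (SE 0.215, adjusted p = 0.368 by edgeR and 0.158 by DESeq2). Between 52.3 and 85.8% of its counts lay on a single transcript annotated as retaining an intron, which gives no protein. That transcript was at 7.21, 7.53 and 10.9 CPM under LGK-974 and 10.05, 7.32 and 4.69 CPM under DMSO, with overlap. The 4 coding transcripts together were at 6.58, 5.87 and 8.03 CPM under LGK-974 and 1.66, 2.45 and 3.41 CPM under DMSO, with no overlap. With coding transcripts alone summed for all genes, a choice made after these values were seen, the log2 fold change of Ms4a7 was 1.39 (SE 0.286, adjusted p = 0.263 by edgeR), and 1.23 to 1.71 with each mouse left out in turn. DESeq2 gave these coding counts an adjusted p of 0.0113. Per kb, they stood at 1.40 times the median silent gene in DMSO replicate 1, and at 9.25 and 40.0 times in DMSO replicates 2 and 3. Under LGK-974 they stood at 49.8 to 156 times. The DMSO mean thus includes 1 library near the silent level, without which edgeR gave 1.23. The neighbouring family members differed among themselves, with a log2 fold change of 1.03 for Ms4a6d (adjusted p = 0.368 by edgeR and 0.00469 by DESeq2) and of 0.42 and 0.45 for Ms4a6c and Ms4a6b, for which both programs gave adjusted p-values above 0.26.

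Ly6c2 encodes the Ly6C antigen of inflammatory monocytes (chromosome 15, 75108158 to 75111970, minus strand). Its neighbour Ly6c1 (75044018 to 75048830) encodes a nearly identical protein that endothelial cells carry. The coding sequences of the main transcripts differ at 9 of 393 bases (97.7% identity) and share an unbroken run of 188 bases. The first 90 coding bases hold 6 of these differences and are shown as the stretch in which the genes can best be told apart (chr15:75110608-75111667 for Ly6c2 and chr15:75047450-75048511 for Ly6c1, GRCm38, minus strand, each split by an intron, with capitals at the differing bases).
Ly6c2: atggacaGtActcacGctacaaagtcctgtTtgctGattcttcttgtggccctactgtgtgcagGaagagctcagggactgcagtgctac
Ly6c1: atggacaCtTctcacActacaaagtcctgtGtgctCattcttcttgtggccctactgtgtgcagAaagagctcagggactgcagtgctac
Of the 792 words of 31 bases in the main coding transcript of Ly6c2, 426 (53.8%) occur in other genes, 390 of them in Ly6c1.

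Summed over all transcripts, Ly6c2 held 379, 204 and 616 estimated counts under LGK-974 and 181, 136 and 117 under DMSO, whereas Ly6c1 held 10056, 7271 and 4541, and 3896, 5528 and 5443. Ly6c1 thus exceeded Ly6c2 in each library, and how the reads that match both genes were divided was not tested. The Ly6c2 level was 4.46, 3.81 and 9.65 CPM under LGK-974 and 4.55, 2.81 and 2.87 CPM under DMSO, so that DMSO replicate 1 lay above 2 of the LGK-974 mice. Its log2 fold change was 0.81 (SE 0.412, adjusted p = 0.383 by edgeR and 0.31 by DESeq2). It was 0.36 without LGK-974 replicate 3, the mouse with the highest level. Ly6c1 itself was at 108 ± 33.4 CPM under LGK-974 and 115 ± 17.9 under DMSO (SD, n = 3 each), where edgeR fitted −0.089 on the log2 scale (SE 0.261), and with both genes summed as 1 it fitted −0.054.

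The make-up of the Ly6c2 counts differed between the groups. A transcript that retains an intron, Ly6c2-202, held 84.2, 87.0 and 92.1% of the counts under DMSO and 36.0, 64.2 and 10.5% under LGK-974. Of its 2627 words of 31 bases, 610 (23.2%) occur in other genes, 546 of them in Ly6c1, a smaller share than for the main coding transcript. However, these 610 words are spread over 1961 other genes, and the 426 shared words of the main coding transcript over 7. The 3 coding transcripts together held 28.6, 17.7 and 9.29 estimated counts under DMSO and 242, 73.0 and 551 under LGK-974. In CPM, these coding transcripts were at 2.85, 1.36 and 8.63 under LGK-974 and at 0.718, 0.366 and 0.228 under DMSO, so that the groups were apart, while the retained-intron transcript was at 1.61, 2.45 and 1.02 and at 3.83, 2.45 and 2.65 CPM, with overlap.

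With coding transcripts alone, the log2 fold change of Ly6c2 was 3.15 (SE 0.81, unadjusted p = 0.00497 and adjusted p = 0.263 by edgeR). DESeq2 on the same coding counts gave 3.18 with an adjusted p of 0.0092. Without LGK-974 replicate 3 edgeR gave 2.23, the lowest value of the 6 fits that each left out a mouse, and without DMSO replicate 1 it gave 3.82, the highest. Per kb, the coding counts of Ly6c2 stood at 1.20 times the median silent gene in DMSO replicate 1, at 2.71 and 7.40 times in the other DMSO libraries, and at 22.5 to 242 times under LGK-974. The fold is therefore taken against DMSO values that are near the silent level in 1 library and rest on under 30 counts in each. Among protein-coding counts, 11.4% of the tested genes were higher in each LGK-974 mouse than in each DMSO mouse and 7.26% were higher at an unadjusted p under 0.05.

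**Figure D2:**
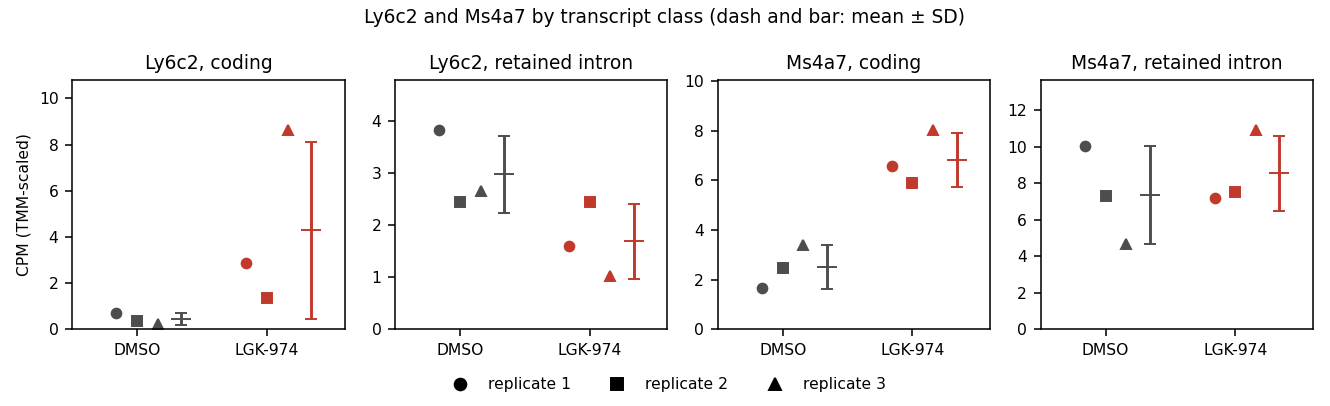
Ly6c2 and Ms4a7 counts are plotted in CPM for their coding transcripts and for their retained-intron transcript, by mouse, with the mean ± SD as dash and bar. The coding transcripts of both genes lie higher in each LGK-974 mouse, and the retained-intron transcripts overlap between the groups.

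Upstream letters of Ly6c2 are shown because monocyte genes are known to depend on the transcription factor PU.1. The 250 bases before its first-listed RefSeq start (chr15:75111972-75112221, GRCm38.p6, minus strand) hold 1 match, in capitals, to GAGGAAGT, a sequence that PU.1 can bind.
Ly6c2 upstream: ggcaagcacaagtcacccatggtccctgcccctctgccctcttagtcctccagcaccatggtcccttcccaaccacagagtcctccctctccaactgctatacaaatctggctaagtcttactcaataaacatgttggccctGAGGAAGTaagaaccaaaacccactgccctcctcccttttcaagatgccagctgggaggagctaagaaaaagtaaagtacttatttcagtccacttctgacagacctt
On either strand, GAGGAAGT occurs in 2.44% of 32851 such upstream windows of mouse genes. It was found for 2 of the 7 members that have an entry, Ly6c2 and Retnla. The AP-1 sequence TGANTCA, present in 6.75% of windows, was found for Cd68 and Ms4a7, and a STAT6 motif, present in 5.85%, for Ms4a7, Plac8 and Retnla. The C/EBP sequence TTGCNNAA, in 9.56%, was found for Cd68, Plac8 and Retnla, and TATAAA, in 12.4%, for Retnla. These are matches of letters and say nothing of binding in these hearts.

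Plac8 encodes a small cysteine-rich protein of monocytes and granulocytes (chromosome 5, 100553725 to 100572245, minus strand). It held 33 to 262 estimated counts per library. The LGK-974 mice were at 1.54, 1.94 and 4.10 CPM and the DMSO mice at 1.41, 1.65 and 0.811 CPM, with overlap, since DMSO replicate 2 lay above LGK-974 replicate 1. For Plac8 the log2 fold change was 0.97 (SE 0.519, adjusted p = 0.399 by edgeR), and it was 0.50 without LGK-974 replicate 3, which was the highest library for Plac8 as for Ly6c2.

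Chil3 encodes Ym1, a chitinase-like protein secreted by monocytes, by alternatively activated macrophages and by maturing neutrophils (chromosome 3, 106147554 to 106167564, minus strand). Its level was 53.0, 33.1 and 27.1 CPM under LGK-974 and 17.2, 17.8 and 17.8 CPM under DMSO. The DMSO mice were almost alike, with an SD of 0.343 CPM, and the LGK-974 mice all lay above them and spread widely, with replicate 1 the highest. On the log2 scale Chil3 was 1.10 higher (SE 0.247), with an adjusted p of 0.368 by edgeR and 0.0167 by DESeq2. Without LGK-974 replicate 1 it was 0.76.

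Chil3 shares 470 of its 1629 words of 31 bases with the neighbouring gene Chil4, which encodes the related protein Ym2, and 676 with any other gene. The main coding sequences are 95.4% identical, with 55 differing bases among 1194 aligned. The stretch of 90 bases with the most differences is shown for the same reason as for the lysozymes (chr3:106148921-106149800 for Chil3 and chr3:106202861-106203750 for Chil4, GRCm38, minus strand, each split by an intron).
Chil3: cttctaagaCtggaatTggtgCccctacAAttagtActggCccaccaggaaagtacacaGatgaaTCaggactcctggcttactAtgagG
Chil4: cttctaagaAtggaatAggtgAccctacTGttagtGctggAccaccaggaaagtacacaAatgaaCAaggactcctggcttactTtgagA
Chil4 held 56.1, 22.0 and 0 estimated counts under LGK-974 and 240, 78.2 and 33.0 under DMSO. Scaled for depth, this was 0.66, 0.411 and 0 CPM against 6.03, 1.61 and 0.811 CPM, so that each LGK-974 mouse lay below each DMSO mouse, opposite to Chil3. Per kb, however, the Chil4 counts were only 0 to 3.65 times the median silent gene under LGK-974 and 4.62 to 7.79 times under DMSO. The highest count was in DMSO replicate 1, and edgeR's log2 fold change of −2.96 had a SE of 1.29 (unadjusted p = 0.0521, adjusted p = 0.368). With the pair summed as 1 gene, the log2 fold change of Chil3 was 0.90 (adjusted p = 0.367 by edgeR).

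Arg1 encodes arginase 1, which splits arginine into ornithine and urea (chromosome 10, 24915221 to 24927484, minus strand). It was measured at 14.3, 8.51 and 18.3 CPM under LGK-974 and 9.20, 12.1 and 5.97 CPM under DMSO. LGK-974 replicate 2 lay below 2 of the DMSO mice. Its log2 fold change of 0.59 (SE 0.343, adjusted p = 0.422 by edgeR) ranged from 0.41 without LGK-974 replicate 3 to 0.91 without LGK-974 replicate 2.

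Nos2 encodes the inducible nitric oxide synthase (chromosome 11, 78920787 to 78960254, plus strand). It stood at 6.63, 4.09 and 8.42 CPM under LGK-974 and 4.32, 5.77 and 6.39 CPM under DMSO, and the range of the DMSO mice lay within that of the LGK-974 mice. The log2 fold change was 0.22 (SE 0.31, adjusted p = 0.733 by edgeR), and −0.037 on counts scaled from TPM. In DMSO replicate 1 the Nos2 counts per kb were 1.48 times those of the median silent gene, and in the other libraries 9.19 to 46.3 times.

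Retnla encodes Fizz1, a secreted protein of interleukin-4-activated macrophages (chromosome 16, 48842551 to 48844461, plus strand). Its counts were 2, 13 and 12 under LGK-974 and 24, 14 and 0 under DMSO. The highest count was in DMSO replicate 1, where the silent genes predict 15.3 counts for a transcript of this length, and the predicted counts in the other libraries were 1.48 to 5.81. The fitted log2 fold change of −0.98 had a SE of 1.53 (adjusted p = 0.757 by edgeR) and was 0.029 without DMSO replicate 1. No difference was detectable at this depth.

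**Figure D3:**
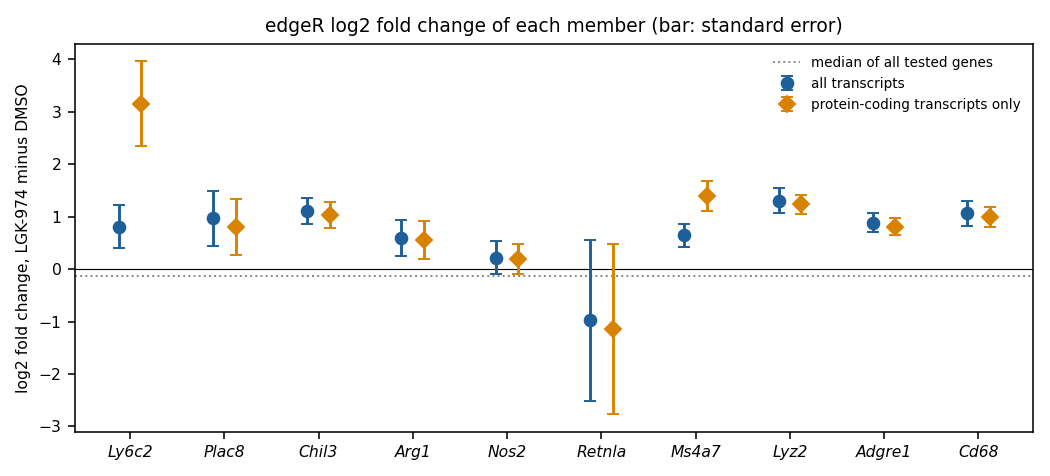
Points give edgeR's log2 fold change (LGK-974 over DMSO) for each member, with bars for its standard error, for counts over all transcripts (circles) and over protein-coding transcripts only (diamonds). The dotted line is the median of all tested genes, −0.13. Ly6c2 and Ms4a7 move most between the ways of counting, from 0.81 to 3.15 and from 0.64 to 1.39, and Retnla has the widest error.

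Per transcript length, the members had a similar order in both groups. Lyz2 and Cd68 led with 183 ± 104 and 87.3 ± 28.4 TPM under LGK-974 and 56.8 ± 23.1 and 33.8 ± 14.0 TPM under DMSO (SD, n = 3 each), and their ranges overlapped in both groups. Chil3 followed at 29.99 ± 11.05 and 11.6 ± 1.70 TPM, apart from Cd68 in both groups. Arg1, Ms4a7 and Adgre1 lay between 11.2 and 13.9 TPM in the mean under LGK-974 and between 4.04 and 6.83 TPM under DMSO, and neighbours among these genes overlapped. Plac8 and Nos2 averaged 5.88 ± 5.62 and 2.32 ± 1.76 TPM with LGK-974 and 1.89 ± 0.668 and 1.73 ± 0.80 TPM with DMSO, and they overlapped each other in both groups. Retnla was lowest, at 0.41 ± 0.342 and 0.548 ± 0.5 TPM. Ly6c2 was at 5.32, 2.27 and 22.9 TPM under LGK-974 and at 1.76, 1.64 and 1.67 TPM under DMSO. On this scale it had no overlap. TPM divides the counts of each transcript by its length, and Ly6c2-202 has 2680 bases against 822 in the main coding transcript. Unlike CPM here, TPM was not scaled between libraries by the TMM method, whose factors ran from 0.816 to 1.40, highest in LGK-974 replicate 3. Mitochondrial genes held 28.2% of the counts in that library and 39.3 to 53.7% in the others. How far this enters the TPM differences between the groups was not tested.

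Ratios of members within a library do not depend on the scaling between libraries, and they were tested for 6 pairs by an exact two-sided permutation test, which with 3 mice against 3 cannot give a p below 0.1. The log2 ratio of Arg1 to Nos2 was 2.57, 2.60 and 2.50 under LGK-974 and 2.67, 1.84 and 1.39 under DMSO. The LGK-974 mice were nearly alike and DMSO replicate 1 lay above all of them, and the mean difference of 0.59 had p = 0.4 (exact permutation test, adjusted p = 0.6 over the 6 ratios). In DMSO replicate 1 Nos2 was only 1.48 times the silent level. The difference was 0.19 with the silent-gene background subtracted and 0.94 without that library. The ratio of Ly6c2 to Adgre1 differed by 0.74 (exact permutation p = 0.6, adjusted p = 0.7) and that of Ly6c2 to Ly6c1 by 1.70 (exact permutation p = 0.2, adjusted p = 0.6), with LGK-974 replicate 3 the highest in both. Without that mouse these differences were 0.030 and 0.84, and without LGK-974 replicate 2 they were 1.38 and 2.36. Relative to Lyz2, the mean log2 ratio was lower with LGK-974 by −0.83 for Arg1 (exact permutation p = 0.3), −0.34 for Chil3 (exact permutation p = 0.4) and −0.41 for Plac8 (exact permutation p = 0.7). The groups overlapped in all 6 ratios.

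**Figure D4:**
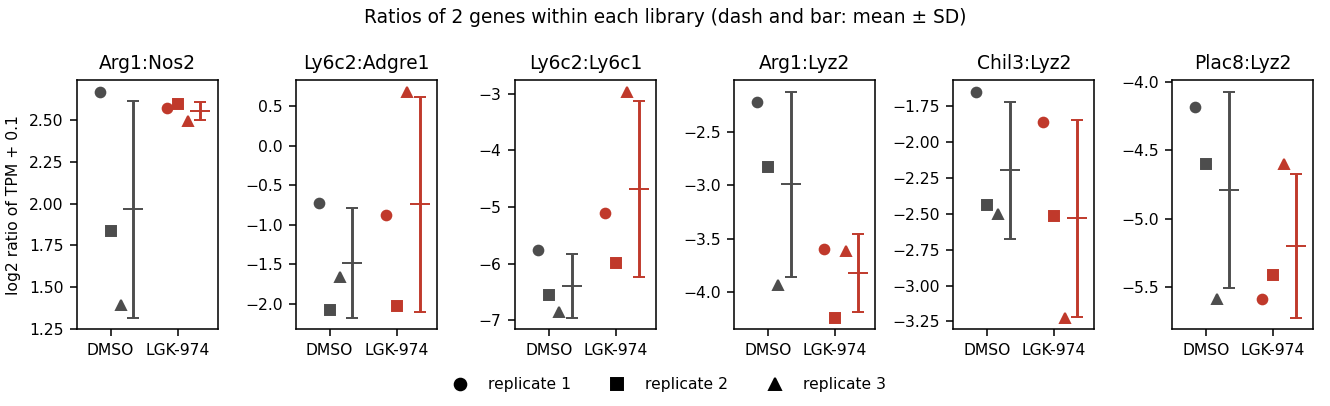
Log2 ratios of the TPM of 2 genes (each TPM plus 0.1) are plotted by mouse for 6 pairs, with the mean ± SD as dash and bar. The groups overlap in every panel; in the Arg1:Nos2 panel the LGK-974 mice lie between 2.50 and 2.60 and the DMSO mice between 1.39 and 2.67.

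Other genes of monocytes and macrophages were read from lists, which were also chosen with earlier results of these data known. Of 14 further genes of classical monocytes, 14 lay higher in the LGK-974 group, against 40.5% of all tested genes. Their median was 0.89 on the log2 scale. By edgeR 11 were higher at an unadjusted p under 0.05, against 6.26% of all tested genes. Against 0.985% of the genes to which it gave an adjusted p, DESeq2 called 7 of these 14 higher. How far cells other than monocytes contributed to these 14 was not tested. Those with the smallest p were Ccl9, a chemokine, and the interferon-induced genes Ifi204 and Ifitm3, with log2 fold changes of 0.99, 0.83 and 0.75. Ccr2, the chemokine receptor by which these monocytes leave the marrow, was picked out after its values were seen. It was at 16.5, 13.3 and 39.8 CPM under LGK-974 and 13.8, 13.7 and 7.34 CPM under DMSO, highest in LGK-974 replicate 3 as Ly6c2 and Plac8 were.

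Of 15 further macrophage genes, which share Csf1r and Fcgr1 with the monocyte list, 15 were higher in LGK-974 hearts, against 40.5% of all tested genes. Their median log2 fold change was 0.87. At an unadjusted p under 0.05 by edgeR 12 were higher, against 6.26% of all tested genes, and DESeq2 called 5, against 0.985%. Mpeg1, a pore-forming protein of phagocytes, averaged 98.7 ± 14.9 CPM with LGK-974 and 43.2 ± 11.4 CPM with DMSO (SD, n = 3 each). Fcgr1 and Fcer1g, which encode an Fc receptor and the signalling chain it uses, had log2 fold changes of 1.38 and 0.87. Of 8 genes of Ly6C-low, non-classical monocytes, 3 were higher and 5 lower, none with an unadjusted p under 0.05 by edgeR, with a median of −0.23, and of 0.028 without DMSO replicate 1, and the 3 with the smallest p, Cd36, Eno3 and Nr4a1, are also expressed by heart muscle or other cells.

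Of 16 tested genes of classical activation, 11 were higher and 5 lower with LGK-974, with a median of 0.30. Without DMSO replicate 1 the median was 0.62, and 7 were higher at an unadjusted p under 0.05, against 7.12% of all genes tested there. DESeq2 called 0 of the 16 with all mice. Against 6.26% of all tested genes, the 4 with an unadjusted p under 0.05 by edgeR with all mice were higher. They included Socs3, a feedback inhibitor of cytokine signals, with 13.1 ± 2.87 against 6.84 ± 1.27 CPM (SD, n = 3 each), the chemokine Cxcl10, with a log2 fold change of 1.86, and the transcription factor Irf5, with 1.07. Of 18 genes of alternative activation, 13 were higher and 5 lower, with a median of 0.33. At an unadjusted p under 0.05 by edgeR 4 were higher, against 6.26% of all tested genes. Fn1, the gene of fibronectin, which fibroblasts also make, and Mrc1, the mannose receptor, were called by DESeq2 (adjusted p = 4.56e-04 and 0.0221), and Il4ra, the interleukin-4 receptor chain, had a log2 fold change of 0.88. Among 12 genes of arginine use, 8 were higher and 4 lower, with a median of 0.20, and of 0.42 without DMSO replicate 1. Ass1, which rebuilds arginine from citrulline, and Odc1, which turns ornithine into polyamines, had log2 fold changes of 1.13 and 0.71 without overlap between the groups, and Ddah1, which breaks down inhibitors of nitric oxide synthases, one of 1.19 with overlap. The relatives Arg2, Nos1 and Nos3 had log2 fold changes of −1.13, −0.67 and −0.066, none with an unadjusted p under 0.05 by edgeR. Of the 13 tested relatives of members, 4 were higher and 9 lower, with a median of −0.63, and of −0.13 without DMSO replicate 1.

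Lyz2, Chil3 and Plac8 are also known from neutrophils, so neutrophil markers were read beside them. Of 13 markers 7 were tested, 3 higher and 4 lower, with a median of −0.05, and their summed level was 35.3 to 52.2 CPM under LGK-974 and 45.5 to 87.8 CPM under DMSO. Cxcr2, Mmp8 and Mpo had the smallest p-values, with log2 fold changes of −1.03, 1.02 and −0.95, and Cxcr2, the only one with an unadjusted p under 0.05, was highest in DMSO replicate 1. Without that library the median was 0.14, and the markers at an unadjusted p under 0.05 were 1 higher and 0 lower in place of 0 higher and 1 lower. Ly6g, Retnlg, Ngp, Camp, Ltf and Elane were at 0 in at least 1 library and were not tested. S100a8 and S100a9, the most abundant genes of neutrophils, were chosen after their values were seen and had log2 fold changes of 0.08 and 0.21. Endothelial markers, which include Ly6c1, had a median of 0.02 (−0.11 without DMSO replicate 1), with 6 of 10 higher and sums of 794 to 877 CPM under LGK-974 and 721 to 984 CPM under DMSO. Lymphocyte markers were at a summed 7.41 to 8.06 CPM under LGK-974 and 6.85 to 39.1 CPM under DMSO, with the highest sum in DMSO replicate 1. Their median was −1.32, and −0.16 without that library.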

How the data were processed

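The authors quantified reads with Kallisto against Ensembl transcripts of GRCm38 and deposited estimated counts and TPM per transcript for each library. RNA was depleted of ribosomal RNA and libraries were made with a capture kit; program version, trimming and annotation release are not given in the sources used here. Estimated counts were joined to GENCODE M21 (116816 of 118489 transcripts), summed per gene and rounded. Testing covered genes that reached 10 counts in 3 or more libraries, with edgeR 4.0.16 (R 4.3.3; TMM, quasi-likelihood test, treatment only, Benjamini-Hochberg over all tested genes, threshold 0.05). DESeq2 1.42.0 and limma 3.58.1 (voom) were alternatives. The deposited TPM values were summed per gene for levels per length and for ratios (plus 0.1; SciPy 1.17.1). The tests were checked on simulated data.

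Sample titles gave the groups and the replicate numbers. The mice are separate animals. The members and lists were chosen with earlier results of these data known, so no p was adjusted over a list alone. The genes named are all members, their relatives, and up to 3 genes of smallest p per list, and others are said to have been picked after their values were seen. Promoter sequences are RefSeq's (GRCm38.p6), transcript sequences GENCODE's. Silent-gene background is the median count per kb of receptor genes of smell and taste in each library.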

Additional observations from a re-analysis of the deposited data

How the results depend on the processing

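The log2 fold changes of Plac8, Chil3, Arg1, Ms4a7, Lyz2, Adgre1 and Cd68 stayed above 0 in all 19 alternatives, which changed the scaling, test, filter, counting unit, background and libraries. Those of Lyz2 ranged from 1.11 to 1.53 and those of Arg1 from 0.41 to 0.91. Ly6c2 changed sign when summed with Ly6c1 (−0.054), Nos2 on counts scaled from TPM (−0.037), and Retnla without DMSO replicate 1 (0.029 by edgeR, within −1.44 to 0.029 when each mouse was left out, and 0.050 by DESeq2). The ratio of Ly6c2 to Adgre1 changed sign on CPM in place of TPM (−0.20), and that of Chil3 to Lyz2 without LGK-974 replicate 3 (0.0099, within −0.67 to 0.0099 when each mouse was left out). The change for Ly6c2 when summed follows from the size of Ly6c1; the cause of the others was not tested.

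The number of members called at an adjusted p was 4 with DESeq2, 4 with DESeq2 without DMSO replicate 1, and 4 with edgeR without a filter on low counts. In that unfiltered fit, 8 members were higher at an unadjusted p under 0.05, against 4.08% of its 34257 genes. It called 1206 of these genes, against 315 genes with DESeq2 and 0 with the chosen design (2699 at an unadjusted p under 0.05). In fits that left out a mouse, the count of all genes called was 0 to 2, members without overlap numbered 5 to 8 (8 without LGK-974 replicate 2, against 18% of all genes there and 14.5 to 23.5% over these fits), members at an unadjusted p 4 to 7 (7 without LGK-974 replicate 2, against 6.1% of all genes higher at that p there and 3.23 to 9.14% over these fits), and the median of the members 0.52 to 1.02, with the lowest value without LGK-974 replicate 3. That median was 1.08 on counts scaled from TPM.

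The deviations of same-numbered mice of the groups had correlations of 0.475, −0.048 and 0.391 for replicates 1 to 3. The values for replicates 1 and 3 exceeded those of all differently numbered mice, and the value for replicate 2 did not. With so few mice these values cannot decide whether the numbers pair the mice, and the sample titles alone do not say. With the replicate number as a block, edgeR called 0 members and 0 genes (3312 at an unadjusted p under 0.05), and the members' log2 fold changes were between −0.44 for Retnla and 1.32 for Lyz2. Chosen after the data were seen were the fits on coding transcripts and DESeq2 without DMSO replicate 1. Counts were lowest for Retnla (0 to 24 per library), the coding transcripts of Ly6c2 (9.29 to 551) and Plac8 (33 to 262).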
